A study of Mus musculus with 14 samples.

Results

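Cytosolic ribosomal protein genes encode the structural proteins of the ribosomes that translate nuclear-encoded mRNAs. They were chosen by symbol alone, as rows named Rps or Rpl with a number and an optional a or x, Rplp0 to Rplp2, Rpsa and Fau, with rows named -ps left out. The rule found 77 of the 22485 genes in the table, 46 of the large subunit and 31 of the small subunit with Rpsa and Fau, each with 1 gene identifier. All 77 passed the filter on low counts that left 13063 genes for testing.

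Each ribosome holds nearly all of these proteins in equal number, and their genes are transcribed at high and closely matched rates. Many of their mRNAs begin with a run of pyrimidines, the terminal oligopyrimidine or TOP motif, through which the mTOR pathway sets how strongly they are translated. In the hippocampus these mRNAs are made by neurons and glia alike, and some are also carried into dendrites and axons.

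The tissue came from the hippocampus of a C57BL/6 mouse, divided into the fields CA1 and CA3 and the dentate gyrus (DG), whose main neurons are pyramidal cells in CA1 and CA3 and granule cells in DG. Control pieces were homogenised at once for RNA extraction. The others were digested at room temperature for 75 min by the protease mixture pronase, at 1 mg/ml in aCSF (artificial cerebrospinal fluid), then vortexed, spun and triturated in aCSF holding 1% fetal bovine serum, and extracted in the same way. RNA-seq libraries numbered 3 control and 3 dissociated in CA1, 2 and 2 in CA3, and 2 and 2 in DG, named here by the replicate numbers of their labels. All 14 come from 1 mouse in the authors' sample table, and the p-values therefore describe how much tissue pieces of that animal vary. In such bulk samples, fewer cells of a type and less RNA per cell cannot be told apart.

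Control libraries held 1285654 to 6646655 estimated counts and dissociated libraries 65887 to 4782767. Dissociated DG replicate 3 (65887 counts), CA1 replicate 2 (135065) and CA1 replicate 3 (300812) were the shallowest, and in the first of these 42 of the 77 ribosomal protein genes had at least 10 counts. The 5 CA1 markers were all called higher in CA1 than in DG (median log2 difference 4.26) and the 5 DG granule cell markers all lower (-4.53). The libraries labelled CA3 held CA1 markers at a summed 600 to 1650 CPM (counts scaled by library total) in control tissue, against 1850 to 2327 in CA1 and 76.1 to 106 in DG. The 5 CA3 markers, 3 of which could be tested, summed to 181 to 584 CPM in control CA3 and 126 to 579 in control DG, so they do not set the 2 apart. In dissociated tissue the CA1 markers summed to 126 to 1544 CPM in CA1, 72.9 to 1205 in CA3 and 60.1 to 273 in DG. The lowest dissociated CA1 and CA3 libraries thus fell within the DG range. DG granule cell markers kept dissociated DG apart, at 516 to 1643 CPM against 47.0 to 163 in CA1 and 136 to 228 in CA3.

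Some of the start regions hold a pyrimidine run of the TOP kind. RefSeq promoter windows (GRCm38.p6, 250 bases before and 50 after a start) were found for 57 of the 77 genes, in 67 windows. The runs searched, which can overlap each other, were CTTTCC along with CTTTTC together with CTCTTT, then also CCTTTC as well as CTTCCT. Any of these 5, on the gene's strand within 20 bases of the start, was held by 26 of the 67 windows, or 38.8%, against 8.26% of all 32851 windows. Other pyrimidine runs, as near the end of the Rpl39 window, were not searched. Rpl35a also has start windows that hold none of the 5, which are not shown. The 30 bases around a start are shown for 6 genes with any of these 5 runs, in capitals. Also shown are 2 genes with none of the 5 that are named in the comparisons that follow.
Rpl35a, chr16:33056467-33056496, plus strand: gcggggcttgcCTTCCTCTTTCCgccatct
Rps10, chr17:27635230-27635259, minus strand: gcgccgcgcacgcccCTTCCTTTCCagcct
Rps6, chr4:86857353-86857382, minus strand: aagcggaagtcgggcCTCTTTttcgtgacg
Rpl38, chr11:114668565-114668594, plus strand: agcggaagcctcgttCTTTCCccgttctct
Fau, chr19:6057932-6057961, plus strand: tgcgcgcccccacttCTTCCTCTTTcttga
Rps27, chr3:90213634-90213663, minus strand: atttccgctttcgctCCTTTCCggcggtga
Rpl39, chrX:37085208-37085237, minus strand: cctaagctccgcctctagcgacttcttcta
Rpl23, chr11:97782425-97782454, minus strand: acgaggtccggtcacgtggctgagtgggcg
Over the whole 300 bases and both strands, CCGGAAG, the core bound by ETS family factors such as GABP, was in 35.8% of the ribosomal protein windows and 8.86% of all windows. AAGATGGC, the core of the YY1 motif, was in 11.9% and 2.75%. The GC box GGGCGG was in 61.2% and 35.7%, and TATAAA, the TATA box core, in 8.96% and 13.6%. These matches describe the letters in the windows and say nothing of binding in this tissue.

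Transcripts of the 77 genes are short, with a median of 683 bases (312 to 3706) against 2804 for all tested genes, so levels are compared between genes in TPM, a share of transcripts corrected for length. The stalk protein gene Rplp1, whose product helps recruit translation factors to the large subunit, was the highest at 2279 ± 604 TPM (SD, n = 14 libraries). Next came Rps29 at 1605 ± 548 and Rpl13a at 1411 ± 470 TPM, then Rpl41, which encodes the shortest ribosomal protein, at 1355 ± 400.5, Rps15 at 1344 ± 401 and Rps21 at 1289 ± 465 TPM. Below Rplp1, neighbours in this order differ by less than their SD.

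At the low end stood Rpl27 at 31.8 ± 26.7 TPM, Rps20 at 46.5 ± 15.0, Rps12 at 122 ± 237, Rpl35 at 163 ± 68.0, Rpl22 at 180 ± 55.8 and Rps16 at 248 ± 76.4 TPM. Rps20 was quantified on a single transcript of 3706 bases, the longest of the group. Rpl27 shares its coding sequence with a second row, and Rps12 all but a gap of 15 bases, as described below with the -ps rows. Of the 77 genes, 27 had 1 transcript in the authors' tables, and among the 50 with several, 18 carried over 90% of their TPM on 1 transcript. Rps24, a gene mutated in Diamond-Blackfan anaemia, carried 93.7% on Rps24-201. Rpl22 carried 70.0% on Rpl22-001 over the libraries, but 23.4% in dissociated CA3 replicate 4 and 16.6% in dissociated DG replicate 4.

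In control tissue the ribosomal protein genes took their largest share of the counts in DG. Their summed share was 0.739%, 0.926% and 0.777% in CA1 replicates 1 to 3 (mean 0.814 ± 0.0987%, SD, n = 3), 0.849% and 1.13% in CA3 replicates 1 and 4 (0.992 ± 0.202%, n = 2) and 1.41% and 1.53% in DG replicates 2 and 3 (1.47 ± 0.0847%, n = 2). Both DG controls lay above all 5 other controls. After dissociation the share was 1.69%, 1.60% and 0.933% in CA1 (1.41 ± 0.415%), 1.27% and 1.12% in CA3 (1.19 ± 0.108%) and 1.66% and 1.08% in DG replicates 3 and 4 (1.37 ± 0.413%). All 3 dissociated CA1 libraries lay above the 3 CA1 controls, though replicate 3 exceeded the highest control by little, and in CA3 and DG the groups overlapped.

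Over the 3 regions the share was 0.231 percentage points higher after dissociation, which is less than the SD of libraries around their group means (0.272 points). Leaving out dissociated DG replicate 3 brought the difference to 0.134 points. On the TPM scale the ribosomal protein genes held 3.20 to 5.96% of the total in control libraries and 3.44 to 5.54% in dissociated ones. The share of mitochondrial genome transcripts moved beside these values, at 4.08 to 7.07% in control and 6.18 to 14.4% in dissociated libraries, and its part in the result was not tested. The ratio of large to small subunit TPM was 1.37 to 1.46 in control libraries and 1.35 to 1.49 in the dissociated ones, apart from 1.72 in dissociated CA1 replicate 3.

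**Figure D1:**
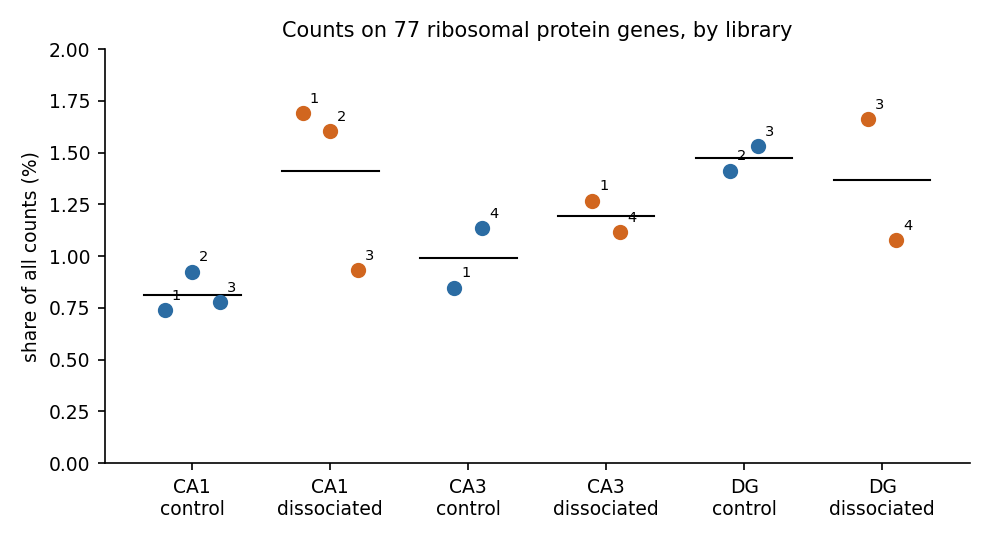
Share of all counts held by the 77 ribosomal protein genes (y axis, percent) in each library, by region and treatment (x axis), with 1 point per library and a black line at each group mean. The control DG libraries sit at 1.41% and 1.53%, above the other controls (0.739 to 1.13%), and the dissociated libraries of each region spread over 0.933 to 1.69%.

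The 77 genes moved largely as a block from library to library. Each gene's log2 CPM, with a prior count of 2 added before the log, was set against its own mean over the 14 libraries. The genes above their mean were counted. In control CA1 only 2, 7 and 2 of 77 were above, and in control DG 70 and 75. Control CA3 had 5 in replicate 1 and 35 in replicate 4. After dissociation 76, 59 and 18 were above in CA1 replicates 1 to 3, 61 and 49 in CA3, and 55 and 27 in DG replicates 3 and 4. The median deviation ran from -0.54 in control CA1 replicate 1 to 0.75 in dissociated CA1 replicate 1. For all tested genes the median deviation was 0.23 and 0.31 in control DG, near the 0.29 and 0.41 of the 77. In control CA1 replicates 1 to 3 it was 0.17, 0.22 and 0.20, against -0.54, -0.31 and -0.51 for the 77. In dissociated DG replicate 3 it was -0.88 against 0.33. Dissociated CA1 replicates 1 and 3, of the same group, were as far apart as control CA1 and control DG.

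Over both treatments the ribosomal protein genes tended to be lower in CA1 than in DG, but few passed the test. In the model with region and treatment, 70 of 77 had a lower value in CA1, with a median log2 fold change of -0.36, and 2 were called lower by edgeR's quasi-likelihood test at an adjusted p under 0.05, against 4.06% of all tested genes called in either direction and 2.07% called lower. The 2 called by edgeR were Rpl7 and Rps12. DESeq2 called 5. Shares of all genes called, here and below, belong to edgeR's main fits at the adjusted threshold. They are no background for counts by DESeq2, by unadjusted p or under other settings. Without dissociated DG replicate 4 the edgeR count was 4, and without any other single library it was 1. The median was -0.19 without control DG replicate 2, -0.11 without control DG replicate 3 and -0.58 without dissociated DG replicate 4.

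Rpl7 (chr1:16101295-16104662, minus strand, GRCm38) encodes a large subunit protein. It measured 88.99, 126 and 119.5 CPM in control CA1, 139 and 141 in control CA3 and 219.9 and 247 in control DG. After dissociation it measured 223, 287 and 181 CPM in CA1, 185 and 166 in CA3 and 765 and 218 in DG. Both DG controls lay above every CA1 and CA3 control, and dissociated DG replicate 3 was far above its partner. Rpl7 was lower in CA1 than in DG by a log2 fold change of -1.03 (SE 0.29, adjusted p = 0.0429) in edgeR, and the CA3 minus DG value was -1.03 (SE 0.32, adjusted p = 0.109). The call of Rpl7 ended without any 1 library other than dissociated DG replicate 4, and without dissociated DG replicate 3 its value was -0.62. Rps12 measured 72.6 and 0 CPM in the DG controls and 0 in all 6 CA1 libraries. Its call, for which no fold is given, ended when the reads of its -ps row were added, with an adjusted p of 0.54 in edgeR, and DESeq2 did not call it.

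Between CA3 and DG, 68 of 77 values were lower in CA3 and the median was -0.33. No ribosomal protein gene was called by edgeR, against 1.77% of all genes, while 6 had an unadjusted p under 0.05 and DESeq2 called 3. The median moved to -0.20 without control CA3 replicate 1, -0.19 without control DG replicate 2, -0.11 without control DG replicate 3 and -0.54 without dissociated DG replicate 4. Rpl39, an X-linked gene for a small protein at the exit tunnel, had one of the lowest values. It measured 39.4, 29.9 and 29.99 CPM in control CA1, 27.7 and 31.3 in control CA3 and 72.6 and 76.5 in control DG. In dissociated libraries it stood at 89.3, 95.7 and 49.5 CPM in CA1, 49.8 and 44.6 in CA3 and 328 and 46.3 in DG. Its log2 difference was -1.49 (SE 0.41, adjusted p = 0.0647), and its DG values overlapped those of CA3 only through dissociated DG replicate 4. Among the highest values were Rps28 at 0.24 and Fau at 0.14, neither of which passed.

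No ribosomal protein gene passed the test between CA1 and CA3. Of 77 genes 31 had a higher value in CA1, the median was -0.02, and edgeR called none, against 0.115% of all genes, with 1 at an unadjusted p under 0.05 and 0 by DESeq2. Fau, whose product is a ubiquitin-like protein fused to a small subunit protein, had the highest value at 0.49 (SE 0.42, adjusted p = 1). Rplp0, the stalk base, had -0.47 (SE 0.30, adjusted p = 1) and Rps24 -0.47 (SE 0.34, adjusted p = 1), also in edgeR.

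The region values differed by treatment, so the contrasts were also taken within control and within dissociated tissue, a choice made after the data had been seen. In control tissue all 77 genes had a lower value in CA1 than in DG, with a median log2 difference of -0.84 beside -0.13 for all tested genes. The large subunit had a median of -0.83 and the small subunit -0.85. In 71 of 77 genes every DG control lay above every CA1 control, or 92.2% against 23.1% of all tested genes. The 6 with overlap were Fau, Rpl10, Rpl27, Rps7, Rps12 and Rps28. Single genes rarely passed: edgeR called 1 (Rps12) against 1.68% of all genes, and the call rests on 1 of the 2 DG controls. Of the 77, 36 had an unadjusted p under 0.05, and DESeq2 called 3. The edgeR calls also changed without the 3 shallow dissociated libraries, which are not in this contrast but enter the shared spread. That fit leaves 1 dissociated library in each of CA1 and DG. It gave log2 differences of -1.07 in Rpl39, -1.06 in Rplp0, -0.96 in Rpl7 and -0.87 in Rps3. With each library left out in turn the median ran from -0.93 to -0.66.

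Every ribosomal protein gene had this direction, so each functional class had it too, and the class medians give only its size. Rplp0 anchors the stalk, and it measured 89.9, 122 and 107 CPM in control CA1, 132 and 147 in control CA3 and 239.7 and 237 in control DG. Every DG value was above every CA1 and CA3 value, and the CA1 minus DG log2 difference was -1.16 (SE 0.35, adjusted p = 0.113) in edgeR. The stalk genes Rplp0, Rplp1 and Rplp2 had a median of -0.86, and the 2 proteins that bind the ribosomal RNA of the central protuberance, Rpl5 and Rpl11, known also for restraining Mdm2, had -0.73. Rps3, which lines the mRNA entry channel, measured 151, 156 and 141 CPM in control CA1, 171 and 215 in control CA3 and 280.0 and 308 in control DG. Its difference was -0.97 (SE 0.29, adjusted p = 0.114) in edgeR, and with Rps2, Rps15 and Rps23 of the decoding region the median was -0.88. The 7 genes of the exit tunnel and its rim had a median of -0.94 and the 3 genes of bridges between the subunits -0.85.

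Rps6, the small subunit protein whose form phosphorylated downstream of mTOR is widely used as an activity marker in neurons, stood at 155, 158 and 141 CPM in control CA1, 128 and 171 in control CA3 and 180.3 and 270.2 in control DG. Its lowest DG control was above its highest CA1 control, and the difference was -0.58 (SE 0.33, adjusted p = 0.614) in edgeR. The 12 genes mutated in Diamond-Blackfan anaemia had a median of -0.83 and ranged from -1.08 to -0.48, and the 4 X-linked genes had -0.84. The exception in size was Fau, with 61.7, 45.4 and 53.3 CPM in control CA1 and 62.3 and 50.1 in control DG and a log2 difference of -0.07.

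Control CA3 lay between them by its medians. Against DG, 76 of 77 genes had a lower value in CA3, with a median of -0.56 beside -0.03 for all genes. In 63 genes, or 81.8%, both DG controls were above both CA3 controls, as for 19.2% of all genes. EdgeR called none, against 0.176% of all genes, with 4 at an unadjusted p under 0.05 and 0 by DESeq2. The median was -0.80 without control CA3 replicate 4 and -0.32 without control CA3 replicate 1. Against CA1, 71 of 77 were lower in CA1 with a median of -0.24, and 12 genes, or 15.6%, had CA3 controls wholly above CA1, close to the 16.0% of all genes. EdgeR called 0 of 77 and 0.0% of all genes there, with 1 at an unadjusted p under 0.05 and 0 by DESeq2.

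In dissociated tissue the difference between CA1 and DG depended on single libraries. CA1 had the higher value for 52 of 77 genes, with a median of 0.31 beside 0.18 for all genes. EdgeR called none against 2.07% of all genes, with 10 at an unadjusted p under 0.05, and DESeq2 called 3. EdgeR called 15 without the 3 shallow libraries (median 1.01), 4 without dissociated DG replicate 3 (Rpl23, Rpl36a, Rpl38 and Rplp2, median 0.59), 2 without dissociated CA1 replicate 3 (median 0.52), 2 without the filter, and Rps12 alone without either DG control. The median was -0.02 without dissociated DG replicate 4 and 0.02 without dissociated CA1 replicate 1. CA3 had the higher value than DG for 46 genes (median 0.08), with none called against 1.25% of all genes, 8 at an unadjusted p under 0.05 and 1 by DESeq2. There edgeR called Rpl39 and Rpl7 lower in CA3 without dissociated DG replicate 4 (median -0.16), Rpl38 without dissociated DG replicate 3 (median 0.38), 4 genes without the shallow libraries (median 0.43), 1 without the filter, and Rps12 without either DG control. CA1 exceeded CA3 in 61 genes (median 0.16), with none called by edgeR or DESeq2 against 0.0% and 1 at an unadjusted p under 0.05.

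**Figure D2:**
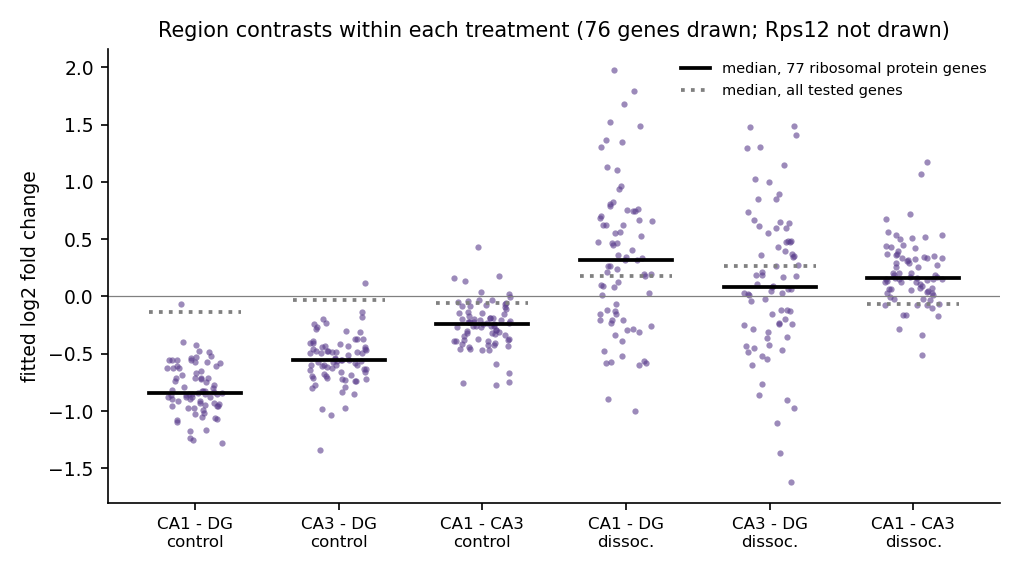
Log2 fold changes between regions (y axis) for 76 ribosomal protein genes, in control and in dissociated libraries (x axis), with 1 point per gene, Rps12 left out, a black line at the median and a dotted line at the median of all tested genes. In control tissue the points for CA1 minus DG all lie below 0 around a median of -0.84, and in dissociated tissue they lie on both sides of 0 around 0.31.

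Oligodendrocyte markers moved with the same control contrast. All 10 had lower values in control CA1 than in control DG, 3 of them called, with a median of -2.01, and their summed level was 669 to 826 CPM in control CA1, 3594 to 3738 in control CA3 and 1978 to 4231 in control DG, with none at 0. The 8 astrocyte markers were also lower in CA1, with a median of -0.30, none called by edgeR and 0 at an unadjusted p under 0.05. Their part in the region result was not tested.

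Dissociation went with higher ribosomal protein values at small and uneven size. In the model with region and treatment all 77 genes had a higher value in dissociated tissue, with a median log2 fold change of 0.40 beside -0.11 for all tested genes, 0.42 in the large and 0.40 in the small subunit. EdgeR called none at an adjusted p under 0.05, against 0.773% of all genes, with 28 at an unadjusted p under 0.05. DESeq2 called 9, namely Rpl7, Rpl18, Rpl28, Rpl35a, Rpl39, Rplp1, Rps4x, Rps15 and Rps27. Without dissociated DG replicate 4 edgeR called 3, and without dissociated CA1 replicate 1 the median was 0.26. On the log2(TPM + 1) scale the median of the 77 was 0.003, where the median of all genes moved from -0.11 to -0.64. Of all genes in the table, 61.1 to 68.6% had at least 1 count in control libraries and 36.6 to 65.0% in dissociated ones. The part of this in the all-gene median was not tested.

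Rpl35a (chr16:33056453-33060189, plus strand), a large subunit gene of the Diamond-Blackfan group with a long pyrimidine run in a start window, came nearest to the threshold. It measured 61.3, 72.98 and 58.6 CPM in control CA1, 63.6 and 80.01 in control CA3 and 121 and 107 in control DG. The dissociated libraries gave 189, 198 and 106 CPM in CA1, 116 and 125 in CA3 and 421 and 72.7 in DG. All CA1 and CA3 libraries after dissociation lay above their controls, while DG split, and its fold change was 1.04 (SE 0.28, adjusted p = 0.0927) in edgeR. Rpl10 (chrX:74270812-74273135, plus strand), whose protein joins the large subunit late and shapes the peptidyl transferase centre, had the highest value, 1.08 (SE 0.37, adjusted p = 0.223) in edgeR, though its reads are divided with a -ps row as given below. It measured 23.7, 54.9 and 52.4 CPM in control CA1, 37.9 and 62.5 in control CA3 and 33.7 and 79.7 in control DG. Dissociated values were 87.9, 315 and 39.6 CPM in CA1, 42.8 and 85.5 in CA3 and 78.04 and 147 in DG. The dissociated values overlap the controls in all 3 regions, and CA1 replicate 2 stands far from the others.

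Rpl39 had 1.00 (SE 0.31, adjusted p = 0.156), Rpl7 0.80 (SE 0.24, adjusted p = 0.134) and Rpl36a, an X-linked large subunit gene, 0.72 (SE 0.34, adjusted p = 0.39), all in edgeR. Rps10, a small subunit gene near the mRNA entry, measured 75.1, 68.1 and 71.6 CPM in control CA1, 53.4 and 104 in control CA3 and 109.9 and 111 in control DG. Following dissociation it stood at 164, 212 and 36.3 CPM in CA1, 129.5 and 161 in CA3 and 390.2 and 89.3 in DG. Its fold change was 0.90 (SE 0.31, adjusted p = 0.23) in edgeR, with a dissociated CA1 library below every CA1 control. The 4 X-linked genes, Rpl10, Rpl36a, Rpl39 and Rps4x, ran from 0.65 to 1.08, where that of Rpl10 was 0.34 once its -ps row was added. The lowest values were Rps15a at 0.06, Rpl7a at 0.08, Rpl15 at 0.09, Rps12 at 0.09, Rps7 at 0.13 and Rps25 at 0.13. On the log2(TPM + 1) scale Rps15a, Rpl7a, Rpl15, Rps7 and Rps25 were negative.

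Among the 9 genes that DESeq2 called, Rplp1 (chr9:61913284-61914542, minus strand) is the most abundant. It stood at 238, 263 and 206 CPM in control CA1, 222 and 342 in control CA3 and 394 and 459.8 in control DG. Its dissociated libraries held 685, 513 and 221 CPM in CA1, 449 and 509 in CA3 and 515 and 352 in DG. Dissociated CA1 replicate 3 lay within the range of the CA1 controls and dissociated DG straddled the DG controls, and the fold change was 0.66 (SE 0.24, adjusted p = 0.24) in edgeR. Rps4x, the X-linked small subunit gene, held 115, 154 and 127 CPM in control CA1, 157 and 189 in control CA3 and 205 and 261 in control DG. With dissociation it held 278, 171 and 251 CPM in CA1, 249.6 and 236 in CA3 and 328 and 334 in DG. In each region all dissociated libraries exceeded all controls, with a fold change of 0.65 (SE 0.19, adjusted p = 0.123) in edgeR.

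By role, the median was 0.30 for the stalk genes, 0.34 for Rpl5 and Rpl11, 0.45 for the fusion genes Rps27a and Fau, 0.43 for the decoding region, 0.45 for the exit tunnel and 0.24 for the bridge genes Rpl19, Rpl24 and Rpl41. Rps6 had 0.44 and the Diamond-Blackfan genes 0.41. Over the 3 regions together, short transcripts as a whole had higher values than long ones after dissociation. When the tested genes were split into 5 bins by length, all genes had a median of 0.04 in the shortest bin, 102 to 1434 bases, and -0.21 in the longest. Within DG the order was the reverse, with -0.50 in the shortest and -0.03 in the longest. The shortest held 73 of the 77. There the 73 ribosomal protein genes had a median of 0.40 and the other genes 0.02.

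**Figure D3:**
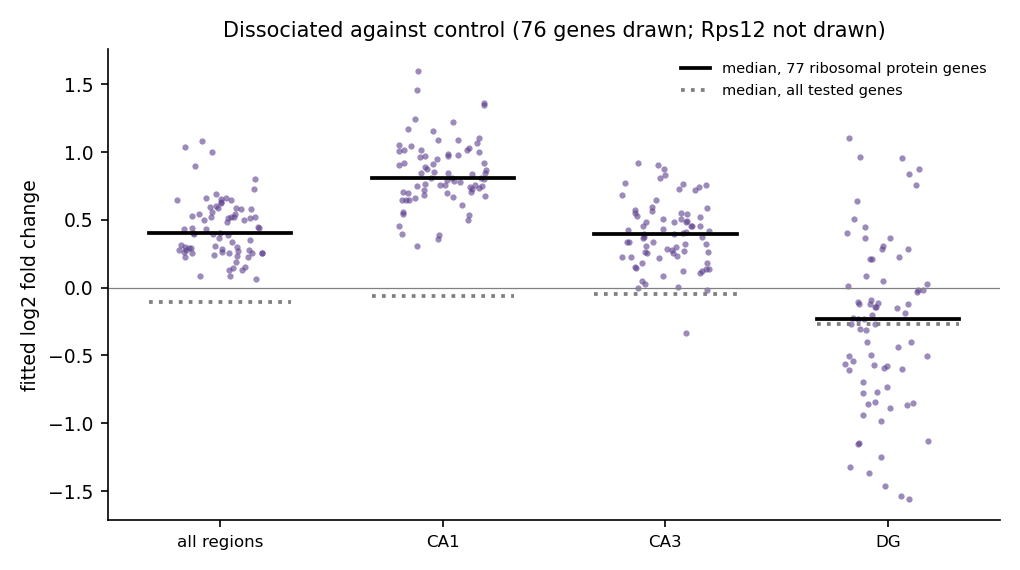
Log2 fold change of dissociated over control tissue (y axis) for 76 ribosomal protein genes, over all regions and within CA1, CA3 and DG (x axis), with 1 point per gene, Rps12 left out, a black line at the median and a dotted line at the median of all tested genes. Medians are 0.40 over all regions, 0.81 in CA1, 0.40 in CA3 and -0.23 in DG.

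The 3 regions gave different values for dissociation. In CA1, 76 of 77 genes had a higher value after dissociation (Rps12 was at 0 in all 6 libraries), with a median of 0.81 beside -0.06 for all genes. EdgeR called none, against 0.191% of all genes, with 45 at an unadjusted p under 0.05, and DESeq2 called 10. In 30 genes, or 39.0%, all 3 dissociated libraries lay above all 3 controls, as for 7.16% of all genes. Without dissociated CA1 replicate 1 the median was 0.52, and without the shallow libraries, which leaves 1 dissociated CA1 library assumed to vary like the other groups, 1.23. The highest were Rpl10 at 1.60 (SE 0.57, adjusted p = 0.295), Rpl36a at 1.46 (SE 0.37, adjusted p = 0.136) and Fau at 1.36 (SE 0.50, adjusted p = 0.302) in edgeR. The lowest beside Rps12 was Rpl3, a core protein of the peptidyl transferase centre, at 0.30.

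In CA3, 73 of 77 genes had a higher value, with a median of 0.40 beside -0.05. None was called by edgeR, against 0.0% of all genes, with 1 at an unadjusted p under 0.05 and 0 by DESeq2. In 40 genes, or 51.9%, both dissociated libraries were above both controls, as for 15.7% of all genes. The median was 0.20 without control CA3 replicate 1 and 0.65 without control CA3 replicate 4. Rpl36a had the highest value at 0.92, followed by Rpl27 at 0.90 and Rps10 at 0.88. Rpl35 at -0.33 and Rpl38 at -0.02 were among the 4 below 0.

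In DG only 23 of 77 genes had a higher value, and the median of -0.23 was near the -0.27 of all genes. EdgeR called none, against 0.161% of all genes, with 9 at an unadjusted p under 0.05 and 0 by DESeq2. In 27 genes, or 35.1%, both dissociated libraries lay below both controls, close to the 32.2% of all genes. In 5, or 6.49%, they lay above, against 8.25%. The median was -0.51 without dissociated DG replicate 3 and 0.07 without dissociated DG replicate 4, so its direction rests on which of the 2 is kept. Rpl38, with 91.6 and 94.3 CPM in the controls and 109 and 11.6 after dissociation, had -1.56 (SE 0.74, adjusted p = 0.354) in edgeR, Rpl23 had -1.53 (SE 0.53, adjusted p = 0.21) and Rps28 -1.47 (SE 0.60, adjusted p = 0.292). The highest were Rps12 at 1.45, Rpl10 at 1.10 and Rpl39 at 0.96. Rpl38 was at 0.23 without dissociated DG replicate 4, and Rpl39 at -0.71 without replicate 3. Rpl38 held 7 counts in each dissociated DG library.

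The difference between the effects in CA1 and DG was tested directly. It was above 0 for 76 of 77 genes, with a median of 1.05 beside 0.30 for all tested genes. EdgeR called none, against 0.00766% of all genes, with 31 at an unadjusted p under 0.05, and DESeq2 called 3, among them Rpl23 and Rpl36a. Rpl23 was also called by edgeR without the filter, at 2.61, and Rpl36a on the log2(TPM + 1) scale, at 2.35. Without the 3 shallow libraries edgeR called 15 and the median was 1.71, though 1 dissociated library is then left in each of CA1 and DG. Without dissociated DG replicate 3 alone, edgeR called Rpl38. The overall test of unequal effects in the 3 regions called none of the 77 in edgeR and 0.0% of all genes, with 16 at an unadjusted p under 0.05 and 0 by DESeq2. The median difference was 0.43 for CA1 against CA3 and 0.68 for CA3 against DG. Neither edgeR nor DESeq2 called any of the 77 in these, against 0.0% of all genes in edgeR, with 0 and 10 at an unadjusted p under 0.05.

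Rpl36a (chrX:134585654-134588062, plus strand) showed the widest gap. It measured 32.6, 27.4 and 28.6 CPM in control CA1, 18.9 and 34.6 in control CA3 and 48.4 and 57.6 in control DG. After dissociation the values were 78.6, 75.2 and 89.1 CPM in CA1, 54.7 and 46.5 in CA3 and 31.2 and 18.2 in DG. All CA1 and CA3 libraries lay above their controls after dissociation and both DG libraries below, and the effect in CA1 minus that in DG was 2.83 (SE 0.68, adjusted p = 0.124) in edgeR. Rpl23 (chr11:97777527-97782437, minus strand), a large subunit protein also known for binding Mdm2, measured 83.6, 109 and 78.3 CPM in control CA1, 76.7 and 145 in control CA3 and 163 and 159 in control DG. Dissociated tissue gave 166, 294 and 139 CPM in CA1, 174 and 138 in CA3 and 93.7 and 42.98 in DG. The same split held between CA1 and DG, with a difference of 2.62 (SE 0.64, adjusted p = 0.126). Rps28, a small subunit gene near the mRNA exit, had 2.57 (SE 0.72, adjusted p = 0.173), with 53.5 and 114 CPM in control DG and 46.8 and 26.5 after dissociation. In dissociated DG replicate 3 the Rps28 value rests on 3 counts. There 3 counts make 45.5 CPM before TMM scaling, and Rpl36a lay below that level.

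At the other end Rps10 had 0.04, and its DG value rests on dissociated DG replicate 3, at 390.2 CPM against 89.3 in replicate 4. By role, the medians in CA1 and DG were 0.79 and -0.84 for the stalk, 0.97 and -0.40 for the exit tunnel, 0.70 and 0.09 for the decoding region and 0.82 and -0.31 for the Diamond-Blackfan genes. Among genes of the shortest length bin, the ribosomal protein genes and the others had medians of 0.81 and 0.21 in CA1, 0.40 and 0.00 in CA3, and -0.23 and -0.51 in DG.

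Glial markers moved with the treatment. All 10 oligodendrocyte markers were higher after dissociation, 9 called, with a median of 1.94 and a summed level of 669 to 4231 CPM in control and 1415 to 11982 in dissociated libraries. All 10 microglia markers were higher, 7 called, with a median of 1.72 and 272 to 494 against 611 to 2384 CPM, where Tmem119 was at 0 in 1 library and Aif1 in 2. The 8 astrocyte markers were all higher, none called by edgeR but 5 at an unadjusted p under 0.05, with a median of 0.73 and 2078 to 3669 against 1975 to 6332 CPM. Of 8 excitatory neuron markers 7 were lower, none called and 2 at an unadjusted p under 0.05, with a median of -0.30 and 9922 to 12456 against 5024 to 13853 CPM. The 13 mitochondrial genome genes were all called higher, with a median of 1.02. Their part in the ribosomal protein values was not tested.

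Some of these genes cannot be told from near-identical copies by short reads. The authors' tables hold 14 rows named after one of the 77 with -ps, a name for pseudogenes, and kallisto divides reads among transcripts that share sequence. Despite the name, GENCODE M21 types Rps12-ps3 and Rpl10-ps3 as protein coding, and Rpl27-ps3 as a processed pseudogene. Rps12 (chr10:23785183-23787275, minus strand) held 169 counts over all libraries against 3985 in Rps12-ps3, Rpl27 (chr11:101442298-101445529, plus strand) 272 against 1983, and Rpl10 2046 against 3538. In the GENCODE M21 models the coding sequences of Rpl10 and Rpl10-ps3 are identical over 645 bases and those of Rpl27 and Rpl27-ps3 over 411. The first 60 coding bases of Rpl10 show what both rows share. Rps12 and Rps12-ps3 differ by 1 gap of 15 bases, given in capitals.
Rpl10, coding bases 1 to 60: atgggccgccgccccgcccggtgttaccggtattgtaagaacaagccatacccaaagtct
Rps12, coding bases 117 to 161: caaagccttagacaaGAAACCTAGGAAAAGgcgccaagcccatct
Rps12-ps3, coding bases 117 to 146: caaagccttagacaagcgccaagcccatct

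The division between the rows changed from library to library. Rps12 was at 0 counts in 10 of 14 libraries, with 10 in control CA3 replicate 1, 99 in control DG replicate 2, 7 in dissociated DG replicate 3 and 53 in dissociated DG replicate 4. Rps12-ps3 was at 0 in exactly those dissociated DG libraries, and Rpl10-ps3 at 0 in them and in dissociated CA1 replicate 2. Summed over both rows, Rps12 was at 77.02, 73.6 and 76.8 CPM in control CA1, 90.1 and 125 in control CA3 and 169 and 173 in control DG (112 ± 43.9, SD, n = 7). The dissociated libraries ran from 56.5 to 193 CPM (119 ± 46.6, SD, n = 7), so they overlap the controls. Its summed treatment value was 0.31 (SE 0.28, adjusted p = 0.694 in edgeR) and its CA1 minus DG value -0.50. Summed Rpl10 had 0.34 over all regions, 0.86 in CA1, 0.45 in CA3 and -0.69 in DG, so its place as the highest value ended and its DG value turned. Summed Rpl27 had 0.33, 0.78, 0.39 and -0.73. Sums were formed after the data had been seen.

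**Figure D4:**
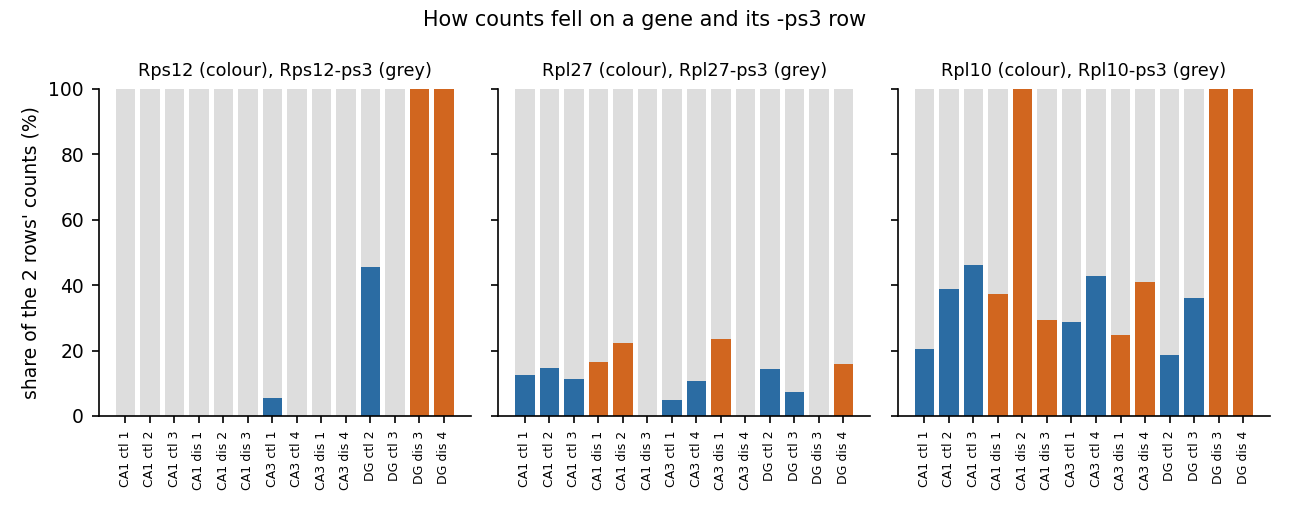
Share of the summed counts of a gene and its -ps3 row (y axis, percent) in each library (x axis), for Rps12, Rpl27 and Rpl10, with the gene in colour (blue control, orange dissociated) and the -ps3 row in grey. Rps12 is at 0 in 10 of 14 libraries and takes all counts in both dissociated DG libraries, and the share for Rpl10 differs between libraries of the same group.

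Sharing of sequence was measured over the whole list by 31-base words found in transcripts of other genes. No such word was found for 26 of the 77, 33 shared over 10% and 11 over 50%, led by Rpl35 at 99.0%, Rps12 at 90.4% and Rpl23a at 83.4%. The 44 genes with at most 10% shared words had a median of -0.84 for control CA1 minus DG and 0.80 for dissociation in CA1, against -0.84 and 0.84 for the 33 others. In DG the medians for dissociation were -0.14 and -0.40.

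Other genes of translation were read beside these. The 16 elongation factors and other TOP mRNAs had 15 lower values in control CA1 than in control DG (median -0.42), 16 of 16 in control CA3 (median -0.37), and 13 of 16 higher values after dissociation (median 0.31). EdgeR called none of them, with 2 and 3 at an unadjusted p under 0.05 in CA1 minus DG and in dissociation. Their median was 0.49 in CA1 and 0.09 in DG. Eef2, which moves the ribosome along the mRNA, had 0.48 (SE 0.20, adjusted p = 0.324) for dissociation and Tpt1 0.45 (SE 0.21, adjusted p = 0.392) in edgeR. Of 7 tested structural genes outside the naming rule, all 7 were lower in control CA1 than in control DG (median -0.49) and their treatment median was 0.12. Rack1, the small subunit scaffold, had 0.63 (SE 0.22, adjusted p = 0.237 in edgeR) and Rps3a1 0.22.

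The 77 tested mitochondrial ribosomal protein genes, whose products serve the organelle's own translation, had a treatment median of -0.13 with 27 higher, and -0.26 for control CA1 minus DG with 66 lower. Their median was 0.17 in CA1 and -0.66 in DG. For dissociation and for control CA1 minus DG, the medians were -0.11 and -0.09 for 30 initiation factors, -0.16 and -0.23 for 29 ribosome biogenesis factors, -0.33 and -0.23 for 12 genes of RNA polymerase I, and -0.23 and -0.08 for 17 genes of the mTOR and S6 kinase pathway.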

How the data were processed

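RNA-seq was measured in 14 libraries of 3 hippocampal regions, control or dissociated. The authors deposited tables per transcript and per gene, holding estimated counts as whole numbers and TPM, transcript shares corrected for length, and their processing notes name FastQC, cutadapt, kallisto and DESeq2 without roles. Genome build, annotation and settings: not given in the sources used here. Deposited gene counts matched sums of transcript counts within 0.5. Depth ran from 65887 to 6646655 counts, and standard errors cover the spread between libraries.

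Counts were tested in R 4.3.3 with edgeR 4.0.16 (TMM scaling, quasi-likelihood test) over the 13063 genes past filterByExpr (minimum count 10, minimum total 15), with Benjamini-Hochberg adjustment over all of them and calls at 0.05. The main model held region and treatment (10 residual degrees of freedom), and a second model, with a separate mean for each group, gave the effects within regions (8). Fold changes of edgeR use its default prior count, and the log2 CPM values set against their means use a prior count of 2. CPM of single genes are TMM-scaled while summed marker CPM are not. Alternatives were DESeq2 1.42.0, RLE size factors, no filter, log2(TPM + 1) with limma 3.58.1, a replicate block, each library left out, and no library under 500000 counts. Region contrasts within a treatment and the sums of genes with their -ps rows were added after seeing the data. The script was tested on simulated counts.

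The 77 genes, the gene lists and the tests were chosen with earlier results of these data known. Genes named are the highest and lowest values of each comparison (6 of each for levels and treatment, otherwise 3 of each), those called, and those of set roles, and genes listed for a DESeq2 call, for overlap or for their start window were named after their values were seen. The replicate numbers of the labels were not used to pair the samples in the main model. Deviations of same-numbered libraries correlated at -0.16 to 0.07. In CA3 and DG, with 2 libraries per group, the deviations of a group mirror each other, so this check cannot exclude pairing. The sample table lists 1 mouse, so no batch could be separated.

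Coordinates and coding sequences are from GENCODE M21 (GRCm38), which holds 99.3% of the transcript identifiers, and promoter windows from RefSeq (GRCm38.p6). Transcript versions can differ under the same identifier, so these sequences, among them that of Rps12, may not be those the authors quantified. No protein sequence was used here. Results on a few single genes are not reported here, though they count among the 77.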

Additional observations from a re-analysis of the deposited data

Results flagged for a closer look

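Among the 48 sets of control or dissociated libraries examined for a single library far from the rest (the ratio of subunits, the summed shares and the named genes), 6 had one. This count has no chance rate to be set against, because many named genes were picked for extreme values and the sets share libraries. The ratio of large to small subunit TPM was 1.72 in dissociated CA1 replicate 3. Rpl10 stood at 315 CPM in dissociated CA1 replicate 2, a library where its -ps3 row is at 0. Dissociated DG replicate 3, the shallowest library, had Rpl7 at 765, Rpl35a at 421 and Rpl39 at 328 CPM. Rps12 was at 72.6 CPM in control DG replicate 2, while 5 of the other 6 controls were at 0.

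Every dissociated library lay above the controls in CA1 or CA3 and below them in DG in 18 of the 77 genes, or 23.4%, against 5.52% of all tested genes. The naming rule, which picks by calls and by extreme values, holds 6 of these genes. The CA1 effect exceeded the DG effect by a log2 difference of 2.83 in Rpl36a, 2.62 in Rpl23, 1.23 in Rps15a and 1.03 in Rpl15. The CA3 effect exceeded it by 2.29 in Rpl36a, 1.70 in Rps25 and 1.63 in Rplp0. These opposite directions were not tested as such, and none of the differences passed the adjusted threshold in edgeR. In dissociated DG replicate 3 the value of Rpl36a lay below 45.5 CPM, the level of 3 counts in that library.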

How the results depend on the processing

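Counts of ribosomal protein genes called for treatment were 0 in the main model, 1 with RLE size factors, 5 without the filter and 9 with DESeq2. For CA1 minus DG, 2 became 5 with DESeq2, 1 on log2(TPM + 1), without the 3 shallow libraries or with -ps rows summed, 1 in control libraries only (median -0.84) and 0 in dissociated libraries only (median 0.31). CA3 minus DG went from 0 to 3 without the filter and with DESeq2, and its median to 0.0848 in dissociated libraries only. CA1 minus CA3 gave 1 without the filter. Treatment within CA1 gave 2 without the filter and 10 with DESeq2, with a median of 0.35 on log2(TPM + 1) and 1.23 without the shallow libraries. Within DG 1 gene was called without the shallow libraries. On log2(TPM + 1) the median was 0.00295 for treatment and -0.0181 within CA3. The causes were not tested.

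With each library left out, calls ran from 0 to 3 for treatment, 1 to 4 for CA1 minus DG, 0 to 2 for CA3 minus DG, 0 to 1 for CA1 minus DG in controls, 0 to 4 for it and 0 to 2 for CA3 minus DG in dissociated libraries, and 0 to 1 for the CA1 minus DG effect (Rpl38 without dissociated DG replicate 3). They were 0 for CA1 minus CA3, within each region and for the interaction. Medians ran from 0.26 to 0.57 for treatment, -0.58 to -0.11 for CA1 minus DG, -0.54 to -0.11 for CA3 minus DG, -0.21 to 0.08 for CA1 minus CA3, 0.52 to 1.07 within CA1, 0.20 to 0.65 within CA3 and -0.51 to 0.07 within DG, and the share difference from 0.134 to 0.328 points. Single genes that turned sign had these ranges: for treatment Rps15a -0.0589 to 0.21, Rpl7a -0.0514 to 0.27, Rps12 -0.95 to 1.34, Rps7 -0.0349 to 0.28 and Rps25 -0.26 to 0.33, for CA3 minus DG Fau -0.0258 to 0.45 and Rps28 -0.15 to 0.96, for CA1 minus CA3 Rps12 -5.15 to 0.39, within CA1 Rpl3 -0.0170 to 0.49, within CA3 Rpl27 -6.39 to 2.12 and Rpl38 -0.33 to 0.44, within DG Rpl38 -3.02 to 0.23 and Rpl39 -0.71 to 2.13, and for the effect in CA1 minus that in DG Rps10 -0.91 to 1.23.

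Values that turned sign on log2(TPM + 1) were, for treatment, Rps15a -0.65, Rpl7a -0.28, Rpl15 -0.0934, Rps7 -0.47 and Rps25 -0.64, within CA1 Rpl3 -0.13, within CA3 Rpl27 -0.78, and for the CA1 minus DG effect Rps10 -0.0947. That effect was also -0.10 in Rps10 with RLE size factors and -0.23 with DESeq2. Rps12 turned to 1.65 there with DESeq2. Without the shallow libraries Rps12 had -0.0931 for treatment and Rpl39 -0.68 within DG. With -ps rows summed, Rps12 had 0.51 within CA3, -0.80 within DG and 1.58 for the CA1 minus DG effect, and Rpl10 -0.69 within DG. Rpl38 within CA3 was at 0.00048 with RLE size factors, 0.00603 without the filter and 0.0108 without the shallow libraries.

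With a replicate block the calls were 4 for treatment, 5 within CA1, 1 within DG and 1 for the interaction. Under the replicate block Rpl38 had 0.0322 within CA3 and 0.21 within DG, Rpl10 -0.0308 within DG, and the CA1 minus DG effect was -1.08 in Rps10. In DG the block rests on the 1 number both groups share. Depth limits the 3 shallow libraries most: at 65887 counts, 42 of the 77 genes had at least 10.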
